A study of Mus musculus with 18 samples.

Results

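ELAC2 A537T is an alanine-to-threonine substitution in the tRNA-processing enzyme ELAC2, and its effect on RNA levels was measured here in the prostate of young tumor-prone male mice. RNA-seq of total RNA, extracted from the ventral plus lateral lobes, compared 3 A537T-TRAMP mice with 3 WT-TRAMP mice, all 10 weeks old, which are 6 of the 18 samples of the series. All genes with a mean of at least 10 normalized counts over these 6 libraries were included, which kept 15438 of 55469 gene IDs. Every mouse was male, was on what the labels call the C56NL/6N strain and carried the TRAMP transgene in heterozygous form (TRAMP +/-). TRAMP expresses the SV40 T antigens from the Pb (probasin) promoter, which is active in prostate epithelium, and mice that carry it develop prostate neoplasia, so the controls share that disease background. The WT-TRAMP mice had both wild-type Elac2 alleles (ELAC2+/+). The A537T-TRAMP mice were homozygous for the point mutation, which is in the germ line and so in every cell type and not in the epithelium alone. The seminal vesicles, bladder, urethra, and the connective and adipose tissue around them had been taken off under a microscope before the lobes were separated.

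ELAC2 is RNase Z, the endonuclease that cuts the 3′ trailer from precursor tRNAs in the nucleus and in mitochondria, after RNase P has cut the 5′ leader. In mitochondria most mRNAs and rRNAs are separated by tRNAs, so the same cuts release them from the long transcripts of the mitochondrial genome. RNase Z also cuts tRNA-like structures at the 3′ ends of the long noncoding RNAs Malat1 and Neat1. Missense variants of the human gene have been linked to prostate cancer risk, and the comparison asks what the A537T form does to transcript levels before advanced tumors form.

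The libraries are named by the numbers in the table's headers, 1 to 3 for WT-TRAMP and 4 to 6 for A537T-TRAMP. A normalized count is a gene's estimated read count divided by a size factor of its library, and p-values measure only the spread between these mice, 3 a group. The libraries held 9380744 to 13094317 reads assigned to genes. The 10 highest genes of a library took 26.7% to 29.5% of its reads, except in library 5, where they took 37.5%. Library 5 stood apart in more than that. In it the genes of seminal vesicle secretory proteins made up 9.05% of all normalized counts, against 0.0487% in library 4 and 1.28% in library 6, and the abundant prostate genes Sbp and Spink1 were far lower than in the other 5 libraries. The luminal epithelial markers were present in every library, with 4121, 4251 and 3768 normalized counts of Krt8 in libraries 1 to 3 and 3892, 2469 and 3354 in libraries 4 to 6. In such bulk tissue, fewer cells of a type and less RNA per cell cannot be told apart. Of the A537T-TRAMP libraries, library 4 had the smooth muscle and seminal vesicle values nearest to WT-TRAMP. Most list medians are given with and without single libraries. Some single genes that rest on library 5 or library 4 are given by their values in each library only.

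A single gene differed between the lines past the threshold. With limma on log2(normalized count + 1) and Benjamini-Hochberg adjustment, 1 of 15438 genes (0.00648%) had an adjusted p under 0.05, and it was lower in A537T-TRAMP. At an unadjusted p under 0.05 there were 783 higher genes (5.07%) and 435 lower genes (2.82%). The 3 libraries of each line did not overlap for 1068 genes that were higher in A537T-TRAMP (6.92%) and 1008 that were lower (6.53%). Counts without overlap in the lists below are to be read beside these shares. Over all genes the median log2 fold change was −0.01. DESeq2 on the reads recovered from the table called more, 139 higher genes (0.905% of 15360 with an adjusted p) and 9 lower genes (0.0586%), whereas edgeR's quasi-likelihood test called 0 in either direction and had 1064 higher and 299 lower genes at an unadjusted p under 0.05. Leaving out library 4 raised the limma count to 62 higher and 3 lower genes, and 43 of those 62 were among the 139 of DESeq2. Everything but the called gene is therefore described by its values, and a direction given for an uncalled gene is that of these 6 mice.

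**Figure D1:**
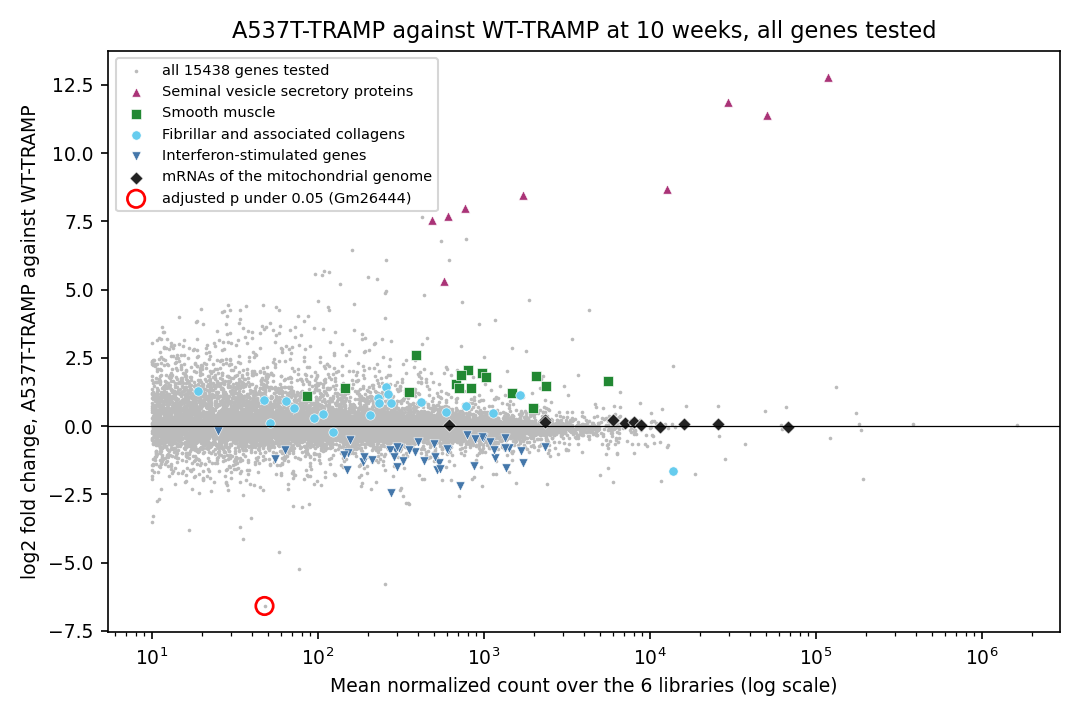
Log2 fold change of A537T-TRAMP over WT-TRAMP (vertical axis) against mean normalized count over 6 libraries (horizontal axis, log scale) for the 15438 genes tested, with the members of several gene lists in color. Nearly all genes lie close to 0, the seminal vesicle genes lie between 5.31 and 12.78, and the called gene Gm26444 lies at −6.59.

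The called gene was Gm26444 (ENSMUSG00000093815.1), an annotated copy of the U1 small nuclear RNA gene on the plus strand of chromosome 12, 54729602 to 54729765 (GRCm38), 164 bases long and without introns. U1 is the RNA of the spliceosome particle that recognizes the 5′ splice site. Its transcript, as the GENCODE annotation gives it, is shown because the same letters stand in other genes of the table, and capitals mark bases 3 to 11, which pair with the 5′ splice site.
Gm26444: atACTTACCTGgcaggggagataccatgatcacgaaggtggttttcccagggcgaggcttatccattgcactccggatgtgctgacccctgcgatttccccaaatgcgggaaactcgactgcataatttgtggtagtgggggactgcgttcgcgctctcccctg
Gm26444 had 87.6, 111.7 and 87.9 normalized counts in libraries 1 to 3 and 0 in each of libraries 4 to 6. It fell by 6.59 on the log2 scale (SE 0.50, adjusted p 0.0389 in limma), and taking 3 reads over the A537T-TRAMP group as the floor it was at least 95.9-fold lower.

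In the libraries where Gm26444 had no read, identical genes had reads instead. In all, 7 genes of the table have exactly this transcript, and reads cannot be assigned to any of them by sequence. Rnu1a1 (chromosome 11, 87422867 to 87423030) had 0 in libraries 1 to 3 and 65.1, 0 and 98.6 normalized counts in libraries 4 to 6. Gm22068 (chromosome 11, 87426716 to 87426879) had 0 in libraries 1 to 3 and 0, 149 and 0 in libraries 4 to 6, and the other 4 copies were at 0 throughout. In each library a single copy thus held all the reads, Gm26444 in the 3 WT-TRAMP libraries, Rnu1a1 in libraries 4 and 6 and Gm22068 in library 5. The sum over the 7 copies was 104 ± 42.3 in A537T-TRAMP against 95.7 ± 13.8 in WT-TRAMP (SD, n = 3), a log2 fold change of 0.05 (SE 0.32, adjusted p 0.959 in limma). With the copies summed, 0 of 15436 genes passed, and 434 lower and 782 higher genes had an unadjusted p under 0.05 in limma.

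**Figure D2:**
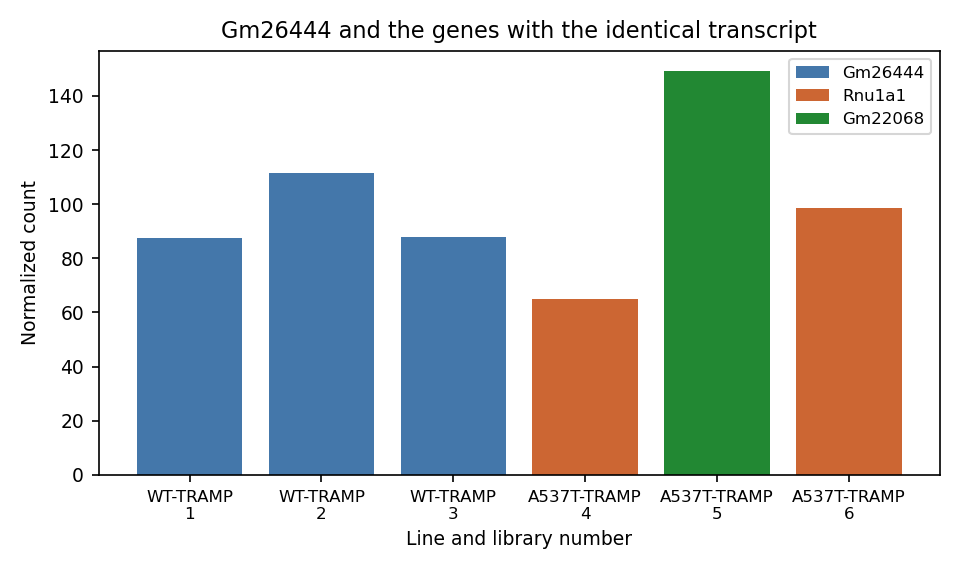
Normalized counts (vertical axis) in libraries 1 to 6 (horizontal axis) of the identical U1 copies with any read, Gm26444, Rnu1a1 and Gm22068, and of their sum. The reads sit in Gm26444 in all 3 WT-TRAMP libraries and in another copy in each A537T-TRAMP library, and the sums of the lines overlap.

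Elac2 itself (ENSMUSG00000020549.14, chromosome 11, 64979038 to 65002069) carried the substitution without a detectable difference in its transcript level. It had 319.7, 257 and 272 normalized counts in libraries 1 to 3 and 306, 249 and 245 in libraries 4 to 6. The lines overlapped, at 267 ± 34.1 against 283 ± 32.9 (SD, n = 3), with a log2 fold change of −0.09 (SE 0.16, adjusted p 0.869 in limma) and, in the exact permutation test (two-sided), p = 0.5, where 3 against 3 allows no p below 0.1. A point mutation does not have to change the level of its own mRNA, so this level does not test the genotype labels.

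Among the genes that make and mature tRNAs and mitochondrial RNAs, 0 of 40 tested passed, and their median log2 fold change was −0.06 (−0.14 without library 4 to 0.01 without library 6). Of them 13 were higher and 27 lower in A537T-TRAMP, 6 and 4 without overlap. Polrmt, the mitochondrial RNA polymerase, had 165, 122 and 161 normalized counts in libraries 1 to 3 and 215, 249 and 208 in libraries 4 to 6, a log2 fold change of 0.59 (SE 0.18, adjusted p 0.60 in limma). Of 9 Pop and Rpp protein subunits of nuclear RNase P tested, 2 were higher and 7 lower, between −0.68 and 0.25, and 2 were lower without overlap. Of these, Rpp30 had 77.1, 88.7 and 82.8 against 61.9, 43.1 and 67.6, with −0.54 (SE 0.24), and Rpp21 had 74.7, 66.8 and 57.6 against 51.3, 51.9 and 47.0, with −0.39 (SE 0.22). Hsd17b10, a subunit of the mitochondrial RNase P, had a log2 fold change of −0.40 (SE 0.20), with overlap because library 4 was at the WT-TRAMP level.

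The 4 noncoding RNAs that RNase P, RNase MRP and RNase Z contain or cut went in different directions. Rmrp, the RNA of RNase MRP, which shares subunits with RNase P and cuts precursor rRNA, had 9539, 8434 and 9671 normalized counts in libraries 1 to 3 and 12229.8, 15864 and 15205 in libraries 4 to 6. All A537T-TRAMP libraries were above all WT-TRAMP libraries, with a log2 fold change of 0.64 (SE 0.15, adjusted p 0.60 in limma) and a DESeq2 adjusted p of 0.0112, but the annotation holds a second gene ID with the same Rmrp sequence. Rpph1, the RNA of nuclear RNase P, had 16509, 22484 and 17473 in libraries 1 to 3 and 20828, 37979 and 38856 in libraries 4 to 6, which overlapped through library 2, with 0.75 (SE 0.28), and 70.2% of its sequence is also in the overlapping gene Ccnb1ip1. The RNase Z substrates were not higher. Neat1 had 30943, 29464 and 27744 normalized counts in libraries 1 to 3 and 24479, 18412 and 26441 in libraries 4 to 6, without overlap and lower in A537T-TRAMP (−0.36 (SE 0.18, adjusted p 0.60 in limma)), and Malat1 had −0.14 (SE 0.24) with overlap. These are reads over the whole RNA and do not separate cut from uncut 3′ ends.

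Of the small RNA classes, tallied after the values were seen, snoRNA and snRNA genes were more often higher than lower. Of 74 snoRNA genes tested, 50 were higher in A537T-TRAMP, 10 of them without overlap (beside 6.92% of all genes) and 0 lower without overlap, and their median log2 fold change was 0.26, against 0.00 for 13085 protein-coding genes. Of 34 snRNA genes 24 were higher, with 3 higher and 1 lower without overlap and a median of 0.63, Gm26444 being the called one. The 11 scaRNA genes were nearly balanced, with 5 higher and 6 lower, 0 without overlap and a median of −0.15. As a share of all normalized counts, snoRNA genes overlapped, with 0.214%, 0.249% and 0.223% in libraries 1 to 3 and 0.224%, 0.232% and 0.274% in libraries 4 to 6. The snRNA genes did not, with 0.263%, 0.302% and 0.299% and 0.333%, 0.353% and 0.372%. Medians with 1 library left out are not given for these classes. Snord15b, a box C/D snoRNA, had 329, 446 and 449 normalized counts in libraries 1 to 3 and 565, 560.4 and 779.7 in libraries 4 to 6 (0.63 (SE 0.20, adjusted p 0.60 in limma)). Rnu12, the U12 RNA of the minor spliceosome, had 197, 417 and 369.7 and 474, 566 and 955 (1.02 (SE 0.35, adjusted p 0.60 in limma)). Many genes of these classes have near-identical copies, as U1 does, so their single values are uncertain.

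The mitochondrial genome's own RNAs followed the library rather than the line. Its 11 mRNAs, which encode subunits of the respiratory chain and ATP synthase, had a median log2 fold change of 0.08 (−0.07 without library 5 to 0.34 without library 4), with 0 of 11 free of overlap. The complex I subunit mt-Nd5 had 5948, 5543 and 4506 normalized counts in libraries 1 to 3 and 3369, 9108 and 7594 in libraries 4 to 6, where library 4 was the lowest and library 5 the highest of all 6. The large rRNA mt-Rnr2 behaved alike, with 383009, 357759 and 305178 in libraries 1 to 3 and 191351, 706296 and 376987 in libraries 4 to 6 (0.09 (SE 0.50)). The small rRNA mt-Rnr1 had 0.05 (SE 0.56), and its sign turned to −0.56 without library 5. None of the 22 mitochondrial tRNA genes reached the minimum level, with a highest value of 1.15 normalized counts. These gene-level counts thus do not measure the mitochondrial tRNAs that ELAC2 cuts. The paper reports tRNA precursors in the TRAMP lines from read coverage along the mitochondrial genome, which was not examined here.

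The nuclear genes for oxidative phosphorylation subunits had 12 of 74 higher and 62 lower and a median log2 fold change of −0.10, with 0 passing. Without overlap 3 were higher and 2 lower, beside 6.92% and 6.53% of all genes. Without library 4 the median was −0.23 and without library 5 it was −0.02. Cyc1, the cytochrome c1 of complex III, had 393, 492 and 413 normalized counts in libraries 1 to 3 and 316, 333 and 286 in libraries 4 to 6 (−0.47 (SE 0.15, adjusted p 0.60 in limma)). Cox5a, a subunit of complex IV, had 415, 364 and 318 and 333, 214 and 258 (−0.46 (SE 0.20)), and there the low values were in libraries 5 and 6 only.

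The genes with the greatest differences in A537T-TRAMP encode proteins of the seminal vesicle, the gland whose secretion forms most of the semen coagulum. All 9 were higher, 8 of them without overlap, with a median log2 fold change of 8.45 (6.599 without library 6 to 11.35 without library 4). Since 8 of the 9 reached the minimum level only through the A537T-TRAMP libraries, this count and median are a description and no support for a difference. Svs2, the main coagulum protein, had 3.21, 1.15 and 8.08 normalized counts in libraries 1 to 3 and 2914, 698197 and 14156 in libraries 4 to 6. Every A537T-TRAMP value was far above every WT-TRAMP value, and the A537T-TRAMP libraries themselves spread widely, with library 5 the highest and library 4 the lowest. Its log2 fold change was 12.78 (SE 1.80, adjusted p 0.458 in limma; 10.53 without library 5), and DESeq2 gave it no adjusted p.

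The other seminal vesicle genes had the same order of lines, but not the same order of libraries. Pate4, a small secreted protein of the gland, had 3.21, 1.15 and 1.01 in libraries 1 to 3 and 757, 167947 and 7843 in libraries 4 to 6 (11.89 (SE 1.70, adjusted p 0.458 in limma); DESeq2 adjusted p 3.59e-12). Svs5 had 4.82, 8.06 and 13.1 and 1191, 257915 and 48275 (11.40 (SE 1.73, adjusted p 0.566 in limma)). Svs4 had 6.43, 12.7 and 25.3 and 140.0, 26448 and 49395 (8.68 (SE 2.03)). Library 5 was the highest for Svs2, Pate4 and Svs5, whereas library 6 was the highest for Svs4, Svs1, Svs6, Svs3a, Svs3b and Spinkl. Svs1 was at 0, 0 and 1.01 in libraries 1 to 3 and at 4.07, 2041 and 8299 in libraries 4 to 6, so library 4 held little of it. Svs3a and Svs3b share 52.0% of the sequence of Svs3a and are uncertain one by one. DESeq2 called 7 of the 9 genes, beside 0.905% of all genes called higher. Limma with array weights called Pate4, Svs2 and Svs5, and limma without library 4 called 8. Since 8 of the 9 genes reached the minimum only through A537T-TRAMP, these calls too are a description and no support for a difference. Whether seminal vesicle tissue was carried along in the dissection was not tested.

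**Figure D3:**
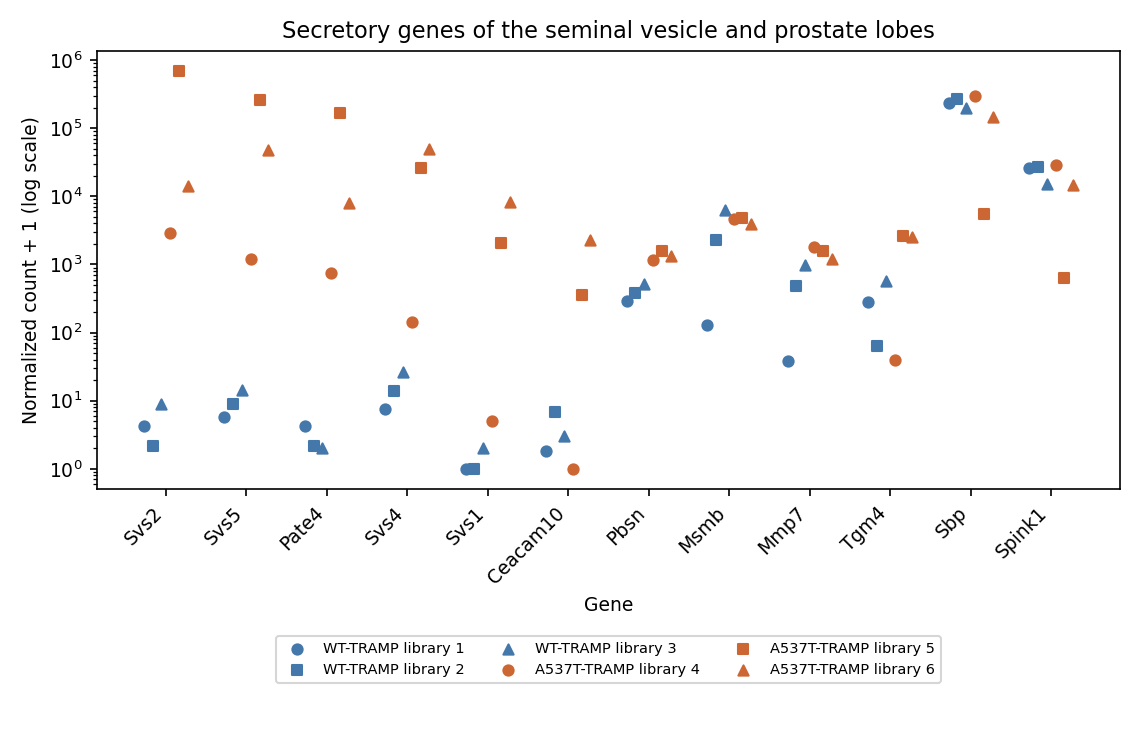
Normalized counts plus 1 (vertical axis, log scale) of 12 secretory genes (horizontal axis) in each library, blue for WT-TRAMP and orange for A537T-TRAMP. Svs2, Svs5, Pate4 and Svs4 are higher in all 3 A537T-TRAMP libraries, Pbsn is higher with little spread, and Sbp and Spink1 are low in library 5 alone.

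Among the 12 higher genes named by p further below, the smallest p was that of Pbsn (ENSMUSG00000000003.15, chromosome X, 77837901 to 77853623). Pbsn is the mouse probasin gene, an androgen-regulated secretory gene of the dorsal and lateral prostate. It had 288, 375 and 520.2 normalized counts in libraries 1 to 3 and 1143, 1561 and 1317 in libraries 4 to 6. The lines were well apart with little spread within them, and the means differed 3.4-fold (1340.2 ± 209.9 against 394 ± 117, SD, n = 3). The log2 fold change was 1.79 (SE 0.23, adjusted p 0.458 in limma), and DESeq2 gave an adjusted p of 4e-08. The promoter of its rat counterpart drives the TRAMP transgene, whose own transcript was not analysed here.

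The secretory genes of the prostate lobes as a group were mixed, with 16 of 27 higher, 6 higher and 1 lower without overlap, and a median log2 fold change of 0.42 (0.19 without library 5 to 0.95 without library 4). The list holds 3 genes that reached the minimum only through A537T-TRAMP. Mmp7, a matrix metalloproteinase of secretory epithelium, had 37.0, 474 and 978 in libraries 1 to 3 and 1790.5, 1559 and 1209.7 in libraries 4 to 6 (2.53 (SE 1.07); 1.138 without library 1). Rnase1, a secreted ribonuclease, had 8.84, 82.9 and 121 and 342, 321 and 266 (2.73 (SE 0.86); 1.61 without library 1). Library 1 was the lowest for both. Msmb, the microseminoprotein of the lateral lobe, had 129, 2316 and 6274 in libraries 1 to 3 and 4709, 4849.7 and 3936 in libraries 4 to 6, and its difference of 1.86 (SE 1.25) rested on library 1, without which it was 0.23.

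Genes that mark other glands and lobes differed from library to library. Ceacam10, a secreted glycoprotein of the seminal vesicle, is counted in the lobe list, whose median is 0.40 over the other 26 genes. It had 0.803, 5.76 and 2.02 in libraries 1 to 3 and 0, 355 and 2275 in libraries 4 to 6, and Tgm4, the transglutaminase of the anterior lobe, had 284, 63.3 and 569.6 and 39.1, 2647 and 2547. Both were high in libraries 5 and 6 and low in library 4. Sbp, the spermine-binding protein of the ventral lobe, had 231389, 271823 and 200545 in libraries 1 to 3 and 297885, 5421 and 144014 in libraries 4 to 6. Spink1, a secreted trypsin inhibitor, had 25948, 27278 and 14941 and 29066, 629 and 14863. For both, library 5 held a few percent of the level of any other library, and without it the log2 fold changes were −0.17 for Sbp and −0.08 for Spink1, against −1.92 and −1.76 with it. The share of each lobe in a library was not measured.

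Androgen-responsive genes of the luminal epithelium were nearly balanced, with 10 of 19 higher, 4 higher and 1 lower without overlap, and a median of 0.10 (0.03 without library 1 to 0.27 without library 3). Fkbp5, a direct androgen target, had 2245, 1283 and 2176 normalized counts in libraries 1 to 3 and 2354, 3203 and 2409 in libraries 4 to 6 (0.51 (SE 0.24)), while Slc45a3, which encodes prostein, had 5341, 5258 and 4313 and 4020.4, 1257 and 3386 (−0.94 (SE 0.41)). The targets thus went both ways, and Pbsn was the member with the greatest difference.

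Smooth muscle genes were higher in A537T-TRAMP throughout. Of 16 contractile and cytoskeletal genes, 16 were higher and 14 did not overlap, with a median log2 fold change of 1.51 (1.79 without library 4, and still above 1 without library 5). With limma 0 passed, and with DESeq2 12 did, beside 0.905% of all genes called higher by DESeq2. As a share of all normalized counts the list made up 0.0687%, 0.111% and 0.0981% in libraries 1 to 3 and 0.160%, 0.385% and 0.244% in libraries 4 to 6. Library 5 was the highest and library 4 the lowest of the A537T-TRAMP libraries for nearly every member. The summed share of the seminal vesicle genes had that order too, with 0.0487%, 9.05% and 1.28% of all normalized counts in libraries 4 to 6. Most of its single genes did not, with library 6 the highest. At 30 weeks Acta2 and Tagln, picked from the list, were lowest within each line in libraries 11 and 14. Svs2 was under 10 normalized counts in the same 2 libraries. The other members are not given by library at that age. The part of what varies with the seminal vesicle genes in the smooth muscle difference was not tested.

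Acta2, smooth muscle actin, had 960.0, 1470.4 and 1215 normalized counts in libraries 1 to 3 and 2558, 5516 and 2614 in libraries 4 to 6 (1.47 (SE 0.32, adjusted p 0.60 in limma); DESeq2 adjusted p 0.00168). Myh11, the smooth muscle myosin heavy chain, had 1750.4, 3049 and 2885 and 4239, 13814 and 7956 (1.64 (SE 0.42)). Actg2, the enteric actin, had 64.3, 109 and 99.99 and 255, 1347 and 469 (2.60 (SE 0.56)), the widest gap of the list. Tagln, an actin-binding protein, was among the 12 higher genes named by p further below, with 766, 952 and 914 and 1522, 2933 and 1829 (1.20 (SE 0.24, adjusted p 0.60 in limma)). Even library 4, the A537T-TRAMP library nearest to WT-TRAMP, was above all WT-TRAMP libraries in these 4 genes. The members with overlap were Hspb6 (1.10 (SE 0.47)) and Tpm1 (0.68 (SE 0.28)). Skeletal muscle genes were highest in libraries 2 and 6, 1 of each line. Myh4, a fast myosin, had 0, 777 and 46.5 in libraries 1 to 3 and 0, 0 and 529.7 in libraries 4 to 6. The 11 genes of that list had 0 without overlap and a median of −0.15 (−1.31 without library 6 to 1.02 without library 5), whose sign thus depended on single libraries.

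Smooth muscle genes are commonly switched on by serum response factor through the CArG box, which is CC, then 6 bases that are A or T, then GG. In RefSeq promoters (GRCm38.p6, 250 bases before to 50 bases after the start), a CArG box on either strand was found for 1 of the 13 smooth muscle genes with a promoter (7.69%) and for 488 of all 27025 promoters (1.81%). The match was in Myl9, the regulatory light chain of smooth muscle myosin, which had 303, 469.8 and 351 normalized counts in libraries 1 to 3 and 691, 1573 and 853 in libraries 4 to 6 (1.40 (SE 0.32)). Its 200 bases before the start (chr2:156775264-156775463, plus strand) are shown as the promoter of the list that holds it, with the box in capitals 161 bases before the start.
Myl9: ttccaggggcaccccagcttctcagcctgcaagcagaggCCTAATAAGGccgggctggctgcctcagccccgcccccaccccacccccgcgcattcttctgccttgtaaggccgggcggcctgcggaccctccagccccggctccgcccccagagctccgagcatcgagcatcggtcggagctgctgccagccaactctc

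Extracellular matrix genes were higher as well. Of 20 genes for fibrillar and associated collagens and their processing, 18 were higher, 13 without overlap, with a median of 0.80 (0.55 without library 3 to 0.93 without library 4). Col3a1, a fibrillar collagen of elastic tissues, had 1319.8, 1148 and 682 normalized counts in libraries 1 to 3 and 1524, 2486 and 2838 in libraries 4 to 6 (1.13 (SE 0.31, adjusted p 0.60 in limma); DESeq2 adjusted p 0.0433). Serpinh1, the collagen chaperone HSP47, had 171, 207 and 113 and 322, 486 and 290.1 (1.16 (SE 0.29)). An opposite member was Col6a3, with 27682, 17807 and 7401 in libraries 1 to 3 and 23654, 1067 and 4841 in libraries 4 to 6 (−1.63 (SE 1.05)), whereas its partner chains Col6a1 and Col6a2 were higher without overlap (0.90 (SE 0.21) and 0.87 (SE 0.24)). The low values of Col6a3 were in libraries 5, 6 and 3, in that order, and those of Sbp and Spink1 were lowest in library 5 too.

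Elastic fibre and microfibril genes had 14 of 16 higher, 7 without overlap, and a median of 0.85 (0.69 without library 6 to 0.98 without library 2). Fbn1, fibrillin-1 of the microfibrils, had 197, 213 and 212 normalized counts in libraries 1 to 3 and 395, 398 and 393 in libraries 4 to 6. Each line was nearly constant within itself, and the log2 fold change was 0.93 (SE 0.13, adjusted p 0.458 in limma), with a DESeq2 adjusted p of 2.72e-05. Eln, elastin, had 43.4, 44.9 and 33.3 and 83.0, 219 and 169.7 (1.83 (SE 0.37)). Ltbp2 and Ltbp3, binding proteins of latent TGF-beta, were near 0 (−0.09 (SE 0.24) and −0.01 (SE 0.21)).

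Basement membrane genes had 16 of 17 higher, 7 higher and 1 lower without overlap, and a median of 0.55 (0.37 without library 5 to 0.78 without library 4). Lama2, the laminin chain of muscle and nerve, had 226, 245 and 199.98 in libraries 1 to 3 and 376, 599 and 673 in libraries 4 to 6 (1.25 (SE 0.23, adjusted p 0.60 in limma)). Lama4, the laminin chain of vessel walls, had 77.9, 119.8 and 123 and 199, 292 and 408 (1.45 (SE 0.31, adjusted p 0.60 in limma)).

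Matricellular proteins and proteoglycans had 19 of 22 higher, 8 higher and 1 lower without overlap, and a median of 0.44 (0.34 without library 3 to 0.60 without library 2). Of them 2 reached the minimum only through A537T-TRAMP. Postn, periostin, had 63.5, 91.0 and 89.9 normalized counts in libraries 1 to 3 and 167, 302 and 266 in libraries 4 to 6 (1.55 (SE 0.27, adjusted p 0.60 in limma); DESeq2 adjusted p 0.000973). Fn1, fibronectin, had 423, 724 and 567 and 903, 1174 and 859 (0.80 (SE 0.22)). Ccn1, an immediate early matrix protein, was lower, with 75.5, 271 and 117 and 47.2, 55.3 and 55.0 (−1.34 (SE 0.44)).

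Fibroblast and endothelial markers were higher in every member tested. The 12 fibroblast genes had a median of 0.87 (0.62 without library 5 to 1.05 without library 4), 4 without overlap. Of them 1 reached the minimum only through A537T-TRAMP. Pdgfra, the platelet-derived growth factor receptor of fibroblasts, had 236, 258 and 269 in libraries 1 to 3 and 363, 442 and 346 in libraries 4 to 6 (0.59 (SE 0.15)), and Dcn, decorin, had 711, 1117 and 772 and 976, 876 and 819 (0.06 (SE 0.19)) with overlap. The 14 endothelial genes tested, of 18 listed, had a median of 1.08 (0.71 without library 6 to 1.41 without library 4), 6 without overlap. Kdr, the receptor of vascular endothelial growth factor, had 32.1, 32.2 and 18.2 and 57.0, 63.0 and 110.1 (1.43 (SE 0.37)). Of the endothelial genes 3 reached the minimum only through A537T-TRAMP. They were low in all libraries, with Pecam1, an endothelial adhesion molecule, at 44.2, 54.1 and 23.2 and 54.5, 95.0 and 102 (1.06 (SE 0.40)). Smooth muscle, fibroblast and endothelial markers were higher in the same libraries as the matrix genes. The fibroblast list shares genes with the matrix lists, Col3a1 among them, so for that list the likeness is partly built in. How much of each matrix difference goes with more stromal cells was not tested.

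**Figure D4:**
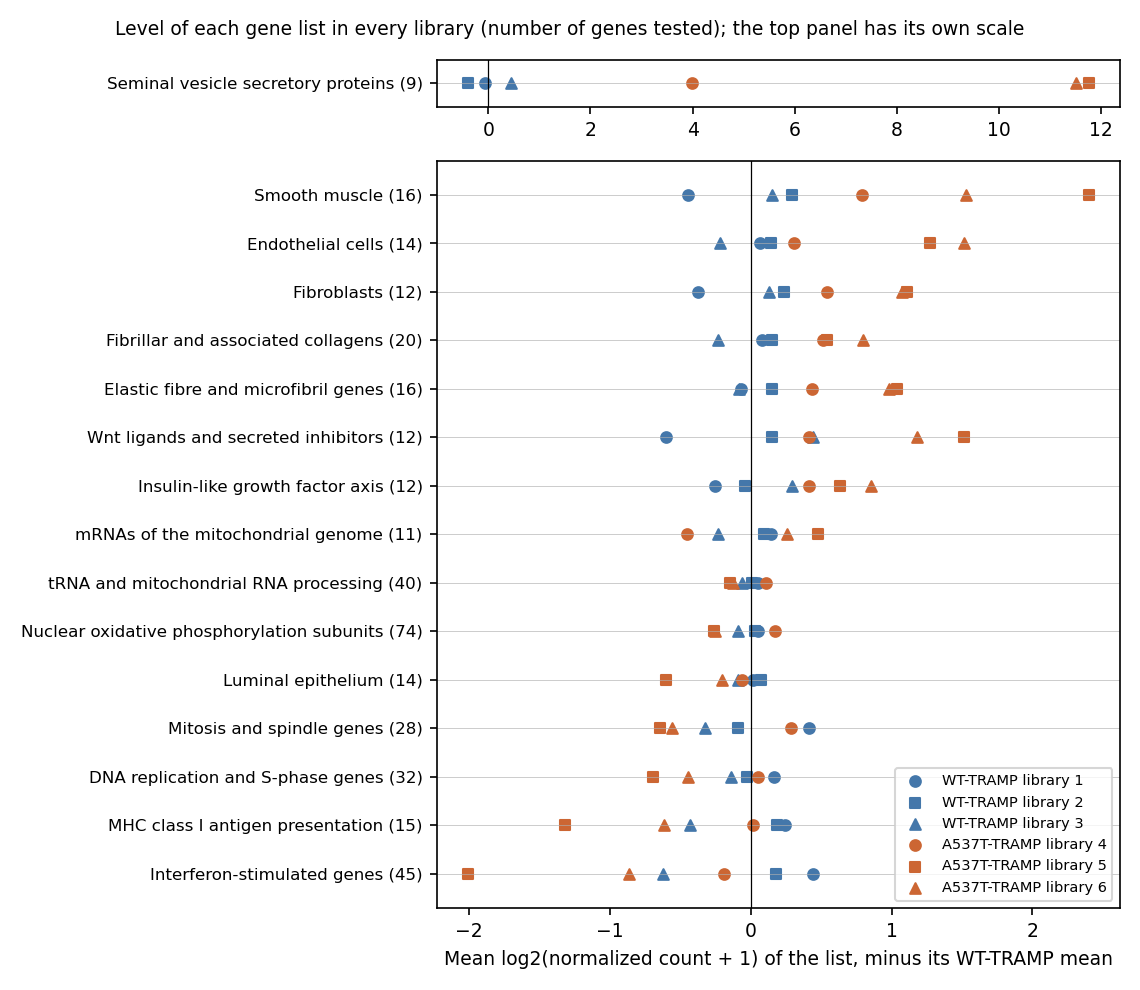
Mean log2(normalized count + 1) of each gene list in each of the 6 libraries, minus its WT-TRAMP mean (horizontal axis), with the number of genes tested in brackets and the seminal vesicle list on its own scale. Smooth muscle, fibroblast, collagen and elastic fibre lists lie above all WT-TRAMP libraries in all 3 A537T-TRAMP libraries, while interferon, MHC and cell cycle lists are lowest in library 5 and near WT-TRAMP in library 4.

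Genes of the insulin-like growth factor axis and of Wnt signalling showed wider spread. Of 12 genes of the insulin-like growth factor axis, 9 were higher, 2 without overlap, with a median of 0.72 (0.38 without library 5 to 0.95 without library 3). Of these genes 1 reached the minimum only through A537T-TRAMP. Igf1, the growth factor, had 144, 73.7 and 111 normalized counts in libraries 1 to 3 and 201, 191 and 159 in libraries 4 to 6 (0.79 (SE 0.27)), and Igfbp3, a binding protein, had 36.1, 31.1 and 41.4 and 51.3, 68.5 and 181 (1.24 (SE 0.46)). The receptor Igf1r had 1183, 1552 and 2361 and 1637, 4663 and 2474 (0.71 (SE 0.40)), with library 5 far above the rest. All 12 Wnt ligands and inhibitors that reached the minimum, of 22 listed, were higher, with a median of 1.04 (0.79 without library 5 to 1.38 without library 4) and 1 without overlap. The gene without overlap was Wnt5a, a noncanonical ligand, with 32.1, 74.8 and 46.5 and 76.5, 266 and 165 (1.62 (SE 0.50)), and Axin2, a target and inhibitor of canonical Wnt signalling, had 12.0, 123 and 230.3 and 152, 812 and 291 (2.20 (SE 1.08)). For Axin2 library 1 was far below the other WT-TRAMP libraries, and without it the difference was 0.97.

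TGF-beta ligands, receptors and targets had 12 of 18 higher, 2 higher and 3 lower without overlap, and a median of 0.41 (0.28 without library 6 to 0.55 without library 4). Id3 and Id1, inhibitors of helix-loop-helix factors and targets of BMP signalling, had the greatest values, and both reached the minimum only through A537T-TRAMP. Id3 had 7.23, 8.06 and 14.1 normalized counts in libraries 1 to 3 and 19.5, 340.4 and 253 in libraries 4 to 6 (3.54 (SE 1.01, adjusted p 0.60 in limma); DESeq2 adjusted p 0.000148). Id1 had 5.62, 5.76 and 16.2 and 10.6, 157 and 194 (2.95 (SE 1.07); DESeq2 adjusted p 0.00986). In both, libraries 5 and 6 were high and library 4 was near WT-TRAMP. The receptor Tgfbr2 and the ligand Tgfb2 were lower without overlap (−0.98 (SE 0.42) and −0.85 (SE 0.36)).

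Interferon-stimulated genes, the antiviral genes induced by interferon signalling, were lower in A537T-TRAMP in all 45 members tested. The median log2 fold change was −0.91, 0 passed with limma or DESeq2, and 4 were lower without overlap, which is 4 of 45 against 6.53% of all genes. The median depended on single mice, with −0.47 without library 5, −1.25 without library 3 and −1.37 without library 4. As a share of all normalized counts the list made up 0.446%, 0.372% and 0.227% in libraries 1 to 3 and 0.298%, 0.0882% and 0.189% in libraries 4 to 6. WT-TRAMP library 3 was thus below A537T-TRAMP library 4, and library 5 was the lowest.

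The interferon-stimulated response element is GAAA, any 2 bases and GAAA again, and their promoters are shown for 4 members with that motif on either strand in capitals. In the RefSeq promoters of 300 bases it was found for 18 of the 32 interferon-stimulated genes with a promoter (56.2%) and for 1079 of all 27025 (3.99%). The windows are Isg15 (chr4:156200819-156200938, minus strand), Ifit1 (chr19:34640769-34640888, plus strand), Ifit3 (chr19:34583349-34583528, plus strand) and Rsad2 (chr12:26456453-26456602, minus strand), each ending just before the start of the gene. The motif lies 66 to 78 bases before the start in Isg15, with 3 overlapping matches, 85 and 104 bases before it in Ifit1, 122 and 156 bases in Ifit3, and 120 bases in Rsad2.
Isg15: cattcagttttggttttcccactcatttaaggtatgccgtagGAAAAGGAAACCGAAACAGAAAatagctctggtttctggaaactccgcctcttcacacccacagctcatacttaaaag
Ifit1: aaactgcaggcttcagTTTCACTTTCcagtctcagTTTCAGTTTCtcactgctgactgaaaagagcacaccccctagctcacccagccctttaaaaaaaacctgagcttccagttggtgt
Ifit3: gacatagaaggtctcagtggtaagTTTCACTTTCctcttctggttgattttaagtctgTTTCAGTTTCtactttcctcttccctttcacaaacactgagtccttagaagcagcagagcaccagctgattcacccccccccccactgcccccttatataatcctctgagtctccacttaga
Rsad2: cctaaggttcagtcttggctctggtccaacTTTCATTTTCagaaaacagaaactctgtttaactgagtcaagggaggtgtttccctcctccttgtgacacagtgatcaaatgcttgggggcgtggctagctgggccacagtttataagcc
Members with the motif had a median log2 fold change of −0.99 (n = 18), those without it −0.89 (n = 14) and those with no promoter in the table −0.98 (n = 13), which are close to each other.

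Isg15, the ubiquitin-like modifier of the antiviral response, had 415, 229 and 159 normalized counts in libraries 1 to 3 and 153, 58.6 and 110.1 in libraries 4 to 6 (−1.30 (SE 0.45, adjusted p 0.60 in limma)). Ifit1, which binds viral RNA, had 1628, 1362 and 699 and 929, 164 and 502 (−1.45 (SE 0.62)). Rsad2, viperin, had 2169, 1477 and 1110.0 and 1079, 342 and 838 (−1.17 (SE 0.44)). Isg15 and Rsad2 did not overlap and Ifit1 did, through libraries 3 and 4. Ifit3 had 999, 875 and 376 and 579, 85.1 and 229 (−1.61 (SE 0.68)), with 61.8% of its sequence also in Ifit3b. Oas3, an oligoadenylate synthetase that activates RNase L, had the greatest difference, 676, 516 and 135 and 237, 14.4 and 81.4 (−2.44 (SE 1.02)), and overlapped. Without library 5 it was −1.37.

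Antigen presentation genes were lower in most members. The MHC class I list had 13 of 15 lower, 0 without overlap, and a median of −0.73 (−1.06 without library 4 to −0.33 without library 5). H2-K1, a class I heavy chain, had 16834, 18252 and 10642 normalized counts in libraries 1 to 3 and 16822, 4765 and 8563 in libraries 4 to 6 (−0.75 (SE 0.45)), whereas its light chain B2m had 13668, 16590.1 and 9757 and 14606, 14925 and 11959 (0.08 (SE 0.22)). The low values were those of libraries 5 and 6. The MHC class II list had 7 of 8 lower, 0 without overlap, and a median of −0.38 (−0.62 without library 3 to −0.16 without library 2).

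Lymphocyte markers were few and low. Of 16 T cell and cytotoxic genes 5 reached the minimum, all with overlap, and 2 of them reached it through WT-TRAMP only. The receptor chains Cd3e and Cd3d were below the minimum. Cd8a, the coreceptor of cytotoxic T cells, had 15.3, 33.4 and 15.2 in libraries 1 to 3 and 22.8, 2.21 and 2.29 in libraries 4 to 6 (−1.72 (SE 0.88)). Of 11 B and plasma cell genes 3 reached the minimum, among them Igkc and Jchain through WT-TRAMP only, so their direction is no support for a difference. Of the others Pax5 and Tnfrsf17 were at 0 in all libraries. Igkc, the kappa light chain constant region, had 18.5, 65.6 and 18.2 and 3.26, 5.53 and 4.59 (−2.44 (SE 0.63, adjusted p 0.60 in limma); DESeq2 adjusted p 0.0447). Jchain, the joining chain of secreted immunoglobulin, had 11.2, 34.5 and 23.2 and 8.95, 3.32 and 5.73 (−1.73 (SE 0.61)). These are low counts, under 90 normalized counts in any library for each gene named.

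Macrophage genes had 11 of 14 lower, 0 without overlap and a median of −0.22 (−0.53 without library 4 to −0.09 without library 5). C1qa, a complement component made by tissue macrophages, had 179, 216 and 147 and 216, 120.5 and 110.1 (−0.33 (SE 0.29)). Of 8 neutrophil genes only Mmp9 reached the minimum (0.35 (SE 0.95)), and 5 of the list were at 0 in all libraries. Acute-phase and STAT3 target genes had 6 of 12 higher, 0 without overlap and a median of −0.02 (−0.10 without library 4 to 0.15 without library 6). Lcn2, lipocalin-2, had 42.6, 31.1 and 21.2 normalized counts in libraries 1 to 3 and 43.1, 1240.1 and 36.7 in libraries 4 to 6, high in library 5 alone.

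Cell cycle genes were mostly lower, by small amounts. The DNA replication and S-phase list had 31 of 32 lower, 3 without overlap, and a median of −0.39 (−0.60 without library 4 to −0.19 without library 5). Mcm6, a subunit of the replicative helicase, had 3086, 2997 and 2436 normalized counts in libraries 1 to 3 and 2603, 1369 and 1909 in libraries 4 to 6 (−0.58 (SE 0.24)), where libraries 5 and 6 were low and library 4 was within WT-TRAMP. The mitosis list had 28 of 28 lower, 0 without overlap, and a median of −0.28 (−0.54 without library 4 to −0.06 without library 1). Mki67, the Ki-67 antigen, had 5202, 4061 and 3848 and 5336, 3664 and 3692 (−0.06 (SE 0.20)), so the A537T-TRAMP range covered the WT-TRAMP range whole. The p53 list had 10 of 14 higher, 1 without overlap and a median of 0.20 (0.02 without library 5 to 0.33 without library 4). Cdkn1a, the p21 inhibitor of cyclin-dependent kinases, had 14.5, 17.3 and 26.3 and 25.2, 57.5 and 41.3 (1.02 (SE 0.42)).

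Proto-oncogenes and growth factor receptors had 8 of 22 higher, 1 higher and 3 lower without overlap, and a median of −0.03 (−0.12 without library 6 to −0.05 without library 5). The higher one was Ccnd1, cyclin D1 of the G1 phase, with 162, 170.4 and 133 normalized counts in libraries 1 to 3 and 203, 9496 and 588 in libraries 4 to 6. Library 5 was far above all others, and the log2 fold change of 2.75 (SE 1.23, adjusted p 0.60 in limma) became 1.16 without it. Egf, the epidermal growth factor, was lower, with 3442, 4397 and 4327 and 2813, 1263 and 3016 (−0.87 (SE 0.33)), and Ezh2, the methyltransferase of Polycomb, had 802, 671 and 708 and 639, 486 and 557 (−0.38 (SE 0.15)).

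Among stress response genes, ATF4 targets, which supply amino acids under the integrated stress response, had 18 of 22 higher, 3 higher and 1 lower without overlap, and a median of 0.40 (0.11 without library 5 to 0.56 without library 6). Slc7a5, a transporter of large neutral amino acids, had 89.2, 223 and 263 normalized counts in libraries 1 to 3 and 346, 1059 and 423 in libraries 4 to 6 (1.62 (SE 0.53)). Mthfd2, the mitochondrial folate enzyme, had 210.5, 162 and 269.7 and 349, 648 and 323 (0.99 (SE 0.31)). Atf3, a stress-induced factor, was lower, with 209, 342 and 259 and 161, 186 and 136 (−0.72 (SE 0.22)). Chaperones and the unfolded protein response had 22 of 30 higher, 2 without overlap and a median of 0.12 (0.02 without library 4 to 0.25 without library 6), and Hspa5, the chaperone BiP, had 6785, 8196 and 8833 and 12119, 9346 and 7042 (0.23 (SE 0.22)).

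Lists of other programs had medians below 0. Hypoxia and glycolysis genes had 10 of 25 higher, 1 higher and 1 lower without overlap, and a median of −0.11 (−0.21 without library 3 to −0.01 without library 1). Sterol and fatty acid synthesis genes had 7 of 22 higher, 0 without overlap, and a median of −0.27 (−0.46 without library 4 to −0.02 without library 1). Elovl6, an elongase of fatty acids, had 22.5, 20.7 and 25.3 normalized counts in libraries 1 to 3 and 22.0, 560.4 and 233 in libraries 4 to 6 (2.60 (SE 1.04); DESeq2 adjusted p 0.00416), high in libraries 5 and 6. Immediate early genes had 12 of 17 lower, 4 without overlap beside 6.53% of all genes, and a median of −0.29 (−0.50 without library 1 to −0.16 without library 4). Of them 1 reached the minimum only through A537T-TRAMP and 1 only through WT-TRAMP. Fos, a subunit of AP-1, had 52.2, 289 and 80.8 and 31.7, 42.0 and 42.4 (−1.46 (SE 0.59)), with library 2 the highest. Genes of the epithelial to mesenchymal transition had 4 of 11 higher, 1 higher and 1 lower without overlap, and a median of −0.15 (−0.28 without library 6 to 0.03 without library 5).

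The epithelium itself gave small differences. Luminal markers had 11 of 14 lower, 2 without overlap, and a median of −0.30 (−0.40 without library 4 to −0.17 without library 5). Cdh1, E-cadherin of epithelial junctions, had 7096, 6082 and 5998 normalized counts in libraries 1 to 3 and 4636, 3815 and 4946 in libraries 4 to 6 (−0.52 (SE 0.15)). Foxa1, a pioneer transcription factor of luminal cells, had 3363, 2900.5 and 2391 and 2389, 1023 and 1929.7 (−0.77 (SE 0.31)). Both were lower without overlap. Basal markers had 5 of 9 higher, 0 without overlap and a median of 0.07 (−0.24 without library 6 to 0.23 without library 4), and Krt5, a basal keratin, had 203, 164 and 88.9 and 115, 244 and 457 (0.70 (SE 0.52)).

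Of 12 neuroendocrine genes 4 reached the minimum, with a median of 1.20 (0.38 without library 1 to 1.93 without library 3) and 1 without overlap, while Chga and Insm1, among others, did not reach it. The gene without overlap was Ncam1, a neural cell adhesion molecule, with 65.1, 158 and 269 and 322, 1211 and 459.8 (2.00 (SE 0.62); DESeq2 adjusted p 0.0435). Peripheral glia and neuron genes had a median of 0.78 (0.12 without library 1 to 1.69 without library 3) over 8. Adipocyte genes had a median of 0.05 (−0.04 without library 3 to 0.44 without library 5) over 4, with 1 lower without overlap. Erythrocyte genes had a median of 0.48 (0.31 without library 1 to 0.66 without library 2) over 4, with 2 higher without overlap. Adipoq, which defines adipocytes, was below the minimum. Of the erythrocyte and of the urothelial genes, 1 each reached the minimum only through A537T-TRAMP. Urothelial genes had a median of 1.03 (0.25 without library 6 to 1.48 without library 5) over 4, and Upk3a, which defines urothelium, was at 0 in libraries 1 to 5 and at 167 normalized counts in library 6. Library 6 thus alone held reads of Upk3a, and Krt7, a keratin that urothelium also has, had 225, 222 and 140.4 and 652, 188 and 856.

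Beside the groups, genes were named by their p alone, the 12 in each direction with the smallest p among protein-coding genes with a mean of at least 100 normalized counts and no overlap. Genes with clone names and segments of immunoglobulins or T cell receptors were left out. Their limma adjusted p-values lay between 0.458 and 0.60, so none passed. On the higher side they were Pbsn, Fbn1, Svs2, Pate4, Svs5, Postn, Lama2, Tagln and Lama4, described above, with Jph2, Mal and Zeb2. Jph2, a protein of muscle membrane junctions, had 37.8, 46.1 and 64.6 normalized counts in libraries 1 to 3 and 119, 288 and 186 in libraries 4 to 6 (1.92 (SE 0.36, adjusted p 0.60 in limma)). Mal, a protein of apical membrane sorting, had 10.4, 38.0 and 53.5 and 146, 461 and 404 (3.38 (SE 0.66, adjusted p 0.60 in limma)). Zeb2, a repressor of epithelial genes, had 112, 177 and 109 and 249, 306 and 267 (1.07 (SE 0.23, adjusted p 0.60 in limma)). Of the 12, 8 belong to the lists of muscle, matrix or seminal vesicle genes. Those lists were chosen with earlier results of these data known, and Svs2, Pate4 and Svs5 reached the minimum only through A537T-TRAMP. This count is therefore a description and no support for a difference.

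On the lower side the differences were smaller, with log2 fold changes from −1.004 to −0.54. Cpeb2, a regulator of mRNA translation, had 1053, 1057 and 933 normalized counts in libraries 1 to 3 and 751, 597 and 631 in libraries 4 to 6 (−0.63 (SE 0.14, adjusted p 0.60 in limma); DESeq2 adjusted p 0.0253). Cxadr, the coxsackievirus and adenovirus receptor of tight junctions, had 1429.9, 1804 and 1512 and 1124, 839 and 980.3 (−0.69 (SE 0.16, adjusted p 0.60 in limma)). Mlph, melanophilin, which links vesicles to myosin, had 4849.6, 3993 and 3248 and 2704, 2345 and 2504 (−0.66 (SE 0.17, adjusted p 0.60 in limma)). DESeq2 also called Cxadr (adjusted p 0.0301) and Mlph (adjusted p 0.0415), but none of the other 9.

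They were Nme1, Thnsl1, Tbc1d24, Hacd2, Slc35f5, Acer3, Mmp15, Tlr3 and Crlf3. Acer3, an alkaline ceramidase, had 882, 935 and 597 normalized counts in libraries 1 to 3 and 475, 272 and 470.1 in libraries 4 to 6 (−1.004 (SE 0.27, adjusted p 0.60 in limma)). Nme1, a nucleoside diphosphate kinase, had 415, 305 and 447 and 259.6, 200.05 and 197 (−0.82 (SE 0.20, adjusted p 0.60 in limma)). Tlr3, the receptor of double-stranded RNA in endosomes and itself induced by interferon, had 377, 433 and 384 and 231, 166 and 297 (−0.82 (SE 0.22, adjusted p 0.60 in limma)). In all 3 genes every A537T-TRAMP library was below every WT-TRAMP library, and library 5 was the lowest for Acer3 and Tlr3.

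The same line at 30 weeks gave a measure that was independent of these 6 mice, from 3 further mice of each line in a table normalized separately. Of 15242 genes measured at both ages, 0 (0%) had an A537T effect that differed between 30 and 10 weeks at a limma adjusted p under 0.05, with 927 at an unadjusted p under 0.05. Without library 4 the count was 5, with array weights, whose fit gave a convergence warning, it was 1573, and without the 30-week WT-TRAMP library 11 it was 1.

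Seminal vesicle genes at 30 weeks were present in both lines and did not separate them. Svs2 had 262971, 1.79 and 116629 normalized counts in WT-TRAMP libraries 10 to 12 and 377074, 5.96 and 186656 in A537T-TRAMP libraries 13 to 15, an effect of 0.84 (SE 5.49), and the difference from 10 weeks was −11.94 (SE 6.53, adjusted p 0.738 in limma). In each line 1 library, 11 or 14, was under 10 normalized counts and the other 2 were high. The median effect of the 9 genes at 30 weeks was 0.40, with 6 higher. Pbsn had 510.1, 118 and 329 and 254, 1326 and 451 at 30 weeks, an overlapping effect of 0.98 (SE 0.70), which differed from that at 10 weeks by −0.82 (SE 0.83, adjusted p 0.785 in limma).

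Smooth muscle genes had a median effect of 0.14 at 30 weeks, against 1.51 at 10 weeks, with 14 of 16 higher. Acta2 had 4431, 2844 and 3523 and 6293, 1996 and 4537 there, and its difference between the ages was −1.35 (SE 0.57, adjusted p 0.738 in limma), so the smaller value at 30 weeks was not separated from that at 10 weeks. Collagens had a median effect of 0.88 at 30 weeks, close to the 0.80 at 10 weeks, with 19 of 20 higher. Col3a1 had 1395, 1304 and 1776 in WT-TRAMP and 3724, 2809 and 3218 in A537T-TRAMP, without overlap, and an effect of 1.13 (SE 0.15) beside 1.13 (SE 0.31) at 10 weeks. The insulin-like growth factor axis had a median effect of −0.06 at 30 weeks, with 5 of 12 higher. Its member Igf1 had 164, 136 and 114 and 682, 506 and 955, an effect of 2.33 (SE 0.25) beside 0.79 (SE 0.27), with a difference of 1.54 (SE 0.39, adjusted p 0.738 in limma).

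Interferon-stimulated genes had a median effect of −0.23 at 30 weeks, with 5 of 45 higher. Isg15 had 393, 263 and 285 and 168, 378 and 248 and overlapped, with an effect of −0.30 (SE 0.30) and a difference from 10 weeks of 1.003 (SE 0.59, adjusted p 0.738 in limma). The cell cycle lists had medians of 0.01 for S phase and −0.02 for mitosis at 30 weeks, and the nuclear oxidative phosphorylation list had 0.15 with 67 of 74 higher, where at 10 weeks 12 of 74 were. Cyc1, without overlap and lower at 10 weeks, had 377, 343 and 365 and 385, 395 and 557 at 30 weeks, with a difference of 0.75 (SE 0.22, adjusted p 0.738 in limma). Acute-phase and STAT3 target genes had a median effect of 0.995 at 30 weeks, with 12 of 12 higher, against −0.02 at 10 weeks.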

How the data were processed

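Per the labels and the study's methods, total RNA of dissected lobes was extracted with the miRNeasy kit, prepared by the TruSeq protocol and sequenced on a NovaSeq instrument. The submitters' processing notes name Trim Galore 0.4.1, cutadapt 1.18, FastQC, STAR 2.7.3a, Salmon and DESeq2 1.26, with GRCm38.p6 (mm10). The deposited signal values are the authors' normalized counts, which are gene read estimates divided by DESeq2 size factors within a table of 6 libraries, and 100% were whole reads times a library constant (tolerance 0.001 reads). Genes with a mean of at least 10 entered limma 3.58.1 with a trended prior (R 4.3.3), after conversion to log2(normalized count + 1), where the pseudocount understates the change of low genes, with an adjusted p threshold of 0.05. The recovered reads entered edgeR 4.0.16 and DESeq2 1.42.0 as alternatives. Size factors can be moved by a few very abundant genes, so TMM scaling and equal sums without the seminal vesicle genes were also tried. An age difference was fitted over 12 libraries with a term for the table. The tools were tested on simulated data of this comparison, where DESeq2 called more unchanged genes than limma or edgeR. In the text, values after a list's median are the lowest and highest medians with 1 of the 6 libraries left out.

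A symbol was available for 55193 of 55469 gene IDs. Shared sequence was measured as the share of a gene's words of 31 bases found in another gene. Named genes were Elac2, any called gene, the 12 of smallest p in each direction by the rule in the text, and members of 43 gene lists. The members, lists and comparisons were chosen with earlier results of these data known, so lists are described by counts and medians with no test. The knockout libraries of the series were not used here. Some members of the lists are counted but not reported by name here. The floor given for Gm26444 covers counting error only, while the SDs and the SEs from limma reflect the spread between mice.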

Additional observations from a re-analysis of the deposited data

How the results depend on the processing

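The count of higher genes, 0 with limma, was 139 with DESeq2, 3 with array weights (whose fit gave a convergence warning), 0 to 62 when 1 library was left out (62 without library 4, 3 without library 3, and 1 without library 2 or 5), and 0 under the other alternatives run. The count of lower genes, 1 with limma, was 0 with a pseudocount of 0.5, 0 with a minimum mean of 50, 0 with edgeR, 9 with DESeq2, 0 with the identical U1 copies summed (chosen after seeing the data), and 0 to 3 when 1 library was left out, with 0 without library 1, 2, 3 or 6 and 3 without library 4. It stayed at 1 under the other alternatives. The 0 genes whose effect differed between the ages became 1573 with array weights and 0 to 5 with 1 of 12 libraries left out. The cause of these shifts was not tested.

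The median log2 fold change of all genes stayed between −0.03 and 0.03 under every alternative. Elac2 ranged from −0.19 without library 4 to 0.01 without library 1 and never passed. Among 187 named genes, 45 of 2969 alternative values passed where the limma value had not and 6, all of Gm26444, no longer passed. None of the named genes that was called turned its direction, but uncalled values had the opposite sign in 97 cases from 39 genes. List medians had the opposite sign in 26 of 684 cases, from 10 of 43 lists. The paper's methods describe the mice as matched by age and litter. No paired analysis was possible, because the headers carry no replicate number. The labels also tie no WT-TRAMP mouse to an A537T-TRAMP mouse. With 3 mice a line and 9380744 to 13094317 reads, differences of low genes can go undetected, and how large they had to be was not tested.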
